A study of Mus musculus with 8 samples.

Results

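Th17 cells are CD4+ helper T cells that secrete IL-17A and IL-17F. The 4 cultured Th17 libraries described here, of 8 mouse libraries in the series, were chosen by their labels: naive CD4+ T cells made into Th17 cells in culture. The other 4 libraries are CD4+ T cells from the colon of Tcrbd-/- recipients (mice without T cells of their own) 6 weeks after transfer of naive cells of the same genotypes, with 2 libraries per genotype, and serve only as a comparison. The control group (WT) is Rora_fl/fl, in which both copies of Rora carry sites for the Cre enzyme, and the knockout group (KO) is Cd4_cre Rora_fl/fl, in which Cre driven from Cd4 removes the flanked stretch in T cells. Both groups thus carry the floxed alleles, and only the knockout carries Cre, so that an effect of Cre itself and of the Rora deletion cannot be told apart. Naive cells were stimulated on plates coated with antibodies to CD3 and CD28 for 4 days with 1 of 2 cytokine mixes. The first was TGF-β and IL-6, and the second was IL-6, IL-1β and IL-23. Before RNA was taken, the cells of every group received PMA and ionomycin, which bypass the T cell receptor and switch on cytokine genes, for 2 hours. Each combination of genotype and mix had 1 library and no replicate. No source used here gives the age or sex of the mice or says whether cells were pooled.

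Rora encodes RORα, a nuclear receptor that is switched on with the Th17 programme and acts beside a related ROR factor on the genes for IL-17. ROR proteins bind DNA as single molecules at an A/T-rich stretch followed by the letters AGGTCA. In most tissues they also drive Arntl, the gene of the clock activator BMAL1. TGF-β with IL-6 is the classic recipe for Th17 cells, whereas IL-6 with IL-1β and IL-23 gives Th17 cells that are known for causing more inflammation.

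The promoters below belong to some of the genes that the results turn on. They are 3 Th17 genes that were lower in knockout cells of both mixes, the receptor gene that was lower in 1 mix, and Arntl. All of the promoters shown hold the letters AGGTCA, which those of several other main genes, named after the sequences, do not. Each runs 5′ to 3′ on the gene's strand from 250 bases before to 50 bases after a RefSeq start (GRCm38.p6), and capitals mark AGGTCA or, where it lies on the other strand, TGACCT. Il17a lies at chr1:20730655-20730954 on the plus strand, Il17f at chr1:20784221-20784520 on the minus strand, Ccr6 at chr17:8235793-8236092 on the plus strand, Il23r at chr6:67491806-67492105 on the minus strand and Arntl at chr7:113207261-113207560 on the plus strand. Ccr6 and Arntl each have 1 more start in the table, with promoters at chr17:8242276-8242575 and chr7:113207215-113207514 that do not hold the letters, and the start that holds them is the one shown.
Il17a: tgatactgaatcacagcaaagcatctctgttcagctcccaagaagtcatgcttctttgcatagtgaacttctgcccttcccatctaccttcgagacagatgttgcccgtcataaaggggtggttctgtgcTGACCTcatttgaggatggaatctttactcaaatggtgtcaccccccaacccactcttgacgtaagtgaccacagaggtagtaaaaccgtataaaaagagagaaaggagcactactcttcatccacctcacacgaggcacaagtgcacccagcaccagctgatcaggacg
Il17f: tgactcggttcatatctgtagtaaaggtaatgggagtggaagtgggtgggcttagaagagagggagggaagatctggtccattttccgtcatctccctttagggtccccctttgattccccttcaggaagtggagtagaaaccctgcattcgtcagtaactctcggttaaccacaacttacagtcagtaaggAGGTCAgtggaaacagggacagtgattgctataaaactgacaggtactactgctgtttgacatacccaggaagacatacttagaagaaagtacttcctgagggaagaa
Ccr6: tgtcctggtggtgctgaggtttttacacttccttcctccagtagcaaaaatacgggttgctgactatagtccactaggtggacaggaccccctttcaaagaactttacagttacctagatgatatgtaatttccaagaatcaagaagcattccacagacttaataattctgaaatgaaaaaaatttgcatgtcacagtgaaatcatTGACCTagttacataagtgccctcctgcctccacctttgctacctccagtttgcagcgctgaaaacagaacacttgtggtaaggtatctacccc
Il23r: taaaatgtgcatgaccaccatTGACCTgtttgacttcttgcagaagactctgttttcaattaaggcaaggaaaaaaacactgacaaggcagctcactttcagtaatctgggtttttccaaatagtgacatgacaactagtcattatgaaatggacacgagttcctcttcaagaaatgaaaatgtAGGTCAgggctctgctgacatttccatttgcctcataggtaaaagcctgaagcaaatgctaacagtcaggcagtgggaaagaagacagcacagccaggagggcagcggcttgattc
Arntl: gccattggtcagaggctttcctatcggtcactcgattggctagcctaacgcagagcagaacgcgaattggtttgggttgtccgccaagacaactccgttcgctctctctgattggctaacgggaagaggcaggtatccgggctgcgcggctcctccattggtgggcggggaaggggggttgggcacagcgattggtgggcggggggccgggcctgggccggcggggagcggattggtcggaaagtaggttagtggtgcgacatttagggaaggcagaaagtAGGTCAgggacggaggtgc
Relative to the RefSeq start, the letters began at -120 in Il17a, -58 in Il17f, -44 in Ccr6, -229 and -66 in Il23r, and 32 in Arntl. Searched on both strands with any neighbouring bases, they occurred in 16.3% of all 32851 mouse promoters of this length and in 14.8% of the 9530 tested genes that had a promoter in the table. A gene counted here if any of its starts held them. No promoter of Rora, Gzmb, Nt5e, Irf1, Tbx21, Il22 or Il1r1 held them, while other named genes such as Ccl20, Ston2 and Srp54c did. They were also looked for in 10 genes per direction, those with the smallest unadjusted p among genes with an established symbol, 5 CPM or more in both libraries of the higher genotype, the same direction in both mixes and a change of 1.5-fold or more. Of the 8 lower genes that RefSeq's table holds, 4 carried them, and of the 7 higher genes 1 did. Most of these genes did not pass the adjusted threshold. These counts describe letters in a short window and are no record of binding.

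The libraries held 15252700 to 15922696 counts each, close enough in depth that no library stood apart, and 20867 to 21875 genes had a count. Scaling factors lay between 0.996 and 1.002. The 14 markers of conventional T cells were detected in each library, with summed levels of 7343 to 7883 CPM (counts scaled to a common library size). Of the 2 markers of CD8 T cells, Cd8a was at 0 in each library and Cd8b1 had 3.23 and 4.14 CPM in control and knockout in the first mix and 10.01 and 7.61 CPM in the second. The marker lists of B, NK and γδ T cells each summed to at most 20.9 CPM. The 17 markers of macrophages and dendritic cells summed to 24.3 and 30.1 CPM in the first mix and to 216 and 235 CPM in the second, carried by H2-Ab1, with the knockout a little below the control of its mix. Between 5 and 8 of the 17 were at 0 in a library, and the part of such cells in the results was not tested. These sums are levels of RNA, and fewer cells of a type and less RNA per cell cannot be told apart here.

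A small set of genes differed between knockout and control Th17 cells in culture. Rora itself fell, Il17a fell, the cytotoxic protease gene Gzmb rose, and a pseudogene, Gm33707, rose. These were 4 of 13983 genes tested, or 0.0286%, in edgeR's quasi-likelihood test with the mix as a block and a Benjamini-Hochberg adjusted p under 0.05, with 2 higher (0.0143%) and 2 lower (0.0143%). At an unadjusted p under 0.05 there were 514 genes, or 3.68%, 262 of them up in the knockout (1.87%) and 252 down (1.8%). The test treats the 2 mixes as if they were replicates and has 1 residual degree of freedom, so that a change in 1 mix alone widens the spread. Nothing in the labels says whether the libraries came from separate mice, so the p-values cover the spread among these 4 libraries and no more, and that spread may be technical. For each gene the spread is also drawn toward a trend over all genes, so a p-value rests in part on other genes.

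Rora (chr9:68653786-69388246) checks the labels. Its level was 499 CPM in the control and 189 CPM in the knockout in the first mix, and 152 and 59.0 CPM in the other mix. The knockout thus held 38.0% of the control level in the first mix, with a 95% binomial interval of 36.4% to 39.6%, and 38.8% (35.9% to 42.0%) in the second. These intervals and those below cover counting error only. The fitted log2 fold change was -1.38 ± 0.07 (SE), with an adjusted p of 3.6e-04. Counts here sum over the whole gene, so reads from outside the removed stretch are still counted in knockout cells. The control level itself was higher with TGF-β and IL-6 than in the other mix, while the share left in the knockout was nearly the same.

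A Th17 core list held 20 genes (cytokines, receptors and transcription factors of these cells). Of them, 8 reached an unadjusted p under 0.05, all lower in the knockout, where 1.8% of all tested genes were lower at that p. The adjusted threshold was passed by 2 of the 8, Rora and Il17a. Rora, the deleted gene, is a member, so its place in these counts was fixed by the design. The list's median log2 fold change was -0.14, against 0.00 over all tested genes. In both mixes 11 members, Rora among them, were lower and 0 higher. Of all tested genes 23.7% were lower in both and 23.2% higher in both.

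Il17a (chr1:20730905-20734496), the signature cytokine, had 1806 CPM in the control and 959 CPM in the knockout with TGF-β and IL-6. In the other mix it had 1701 and 921 CPM. Both knockout libraries lay far below both controls, at 53.1% (52.1% to 54.2%) and 54.1% (53.0% to 55.2%) of the control. The fitted log2 fold change was -0.90 ± 0.07, with an adjusted p of 0.0044 in edgeR's quasi-likelihood test.

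Il17f (chr1:20777146-20790617), the neighbouring family member, had 3152 and 2185 CPM in control and knockout in the first mix, and 1942 and 1030 CPM in the other mix. The knockout was lower in each mix, but by different amounts, to 69.3% and 53.1% of the control. Its fitted log2 fold change of -0.72 ± 0.09 had an adjusted p of 0.11 in edgeR's test. Over the other settings its adjusted p ran from 1.2e-09 in DESeq2 to 1.0 in edgeR without a term for the mix. As CPM per kilobase of exon, control levels were 1542 for Il17a and 1559 for Il17f in the first mix, and 1453 for Il17a and 960 for Il17f in the other mix.

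Ccr6 (chr17:8236043-8257141), the receptor by which Th17 cells follow the chemokine CCL20, had 25.4 and 11.9 CPM in control and knockout in the first mix and 23.6 and 13.2 CPM in the second. The knockout held 46.9% (39.3% to 55.9%) and 55.9% (46.8% to 66.6%) of the control. The fitted log2 fold change was -0.96 ± 0.11, with an adjusted p of 0.065 in edgeR's test, which is short of the threshold. In edgeR, library totals, DESeq2's size factors and the fit of all 8 libraries called it, with adjusted p of 0.012, 0.0053 and 0.0050. DESeq2's own test (0.0996), edgeR's older method (0.069), edgeR with no filter on low counts (0.76) and edgeR without a term for the mix (1.0) did not.

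Ccl20, the ligand of that receptor, was abundant with TGF-β and IL-6, where control and knockout had 1194 and 888 CPM, against 3.36 and 2.34 CPM in the other mix. Il22, a cytokine that acts on epithelium, showed the opposite dependence on the mix, with 4 and 3 counts in the first and 67.5 and 48.9 CPM in the second. For both genes the knockout held about the same share of the control wherever the gene was well counted, 74.4% for Ccl20 and 72.5% for Il22. Il1r1, the IL-1 receptor, had 79.2 and 60.1 CPM in the first mix and 115 and 89.3 CPM in the second, or 75.8% and 77.5% of the control. Adjusted p was 0.47 or higher for these 3 genes in edgeR's test.

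Batf, Stat3 and Irf4, transcription factors of the list, lay close to their controls. Batf, which opens chromatin for the Th17 programme, had log2 ratios of -0.01 and -0.03, Stat3, which carries the IL-6 signal, 0.00 and -0.04, and Irf4 -0.04 and 0.06. Maf was lower by a small and equal step in each mix, with 89.2% of the control in both and an unadjusted p of 0.034. Il21 went in opposite directions, with 1940 and 1764 CPM in control and knockout in the first mix and 593 and 722 CPM in the second. Csf2, the cytokine GM-CSF linked to inflammatory Th17 cells, had 3.48 and 2.44 CPM in the first mix and 11.2 and 7.16 CPM in the second, and its adjusted p was 1.0.

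**Figure D1:**
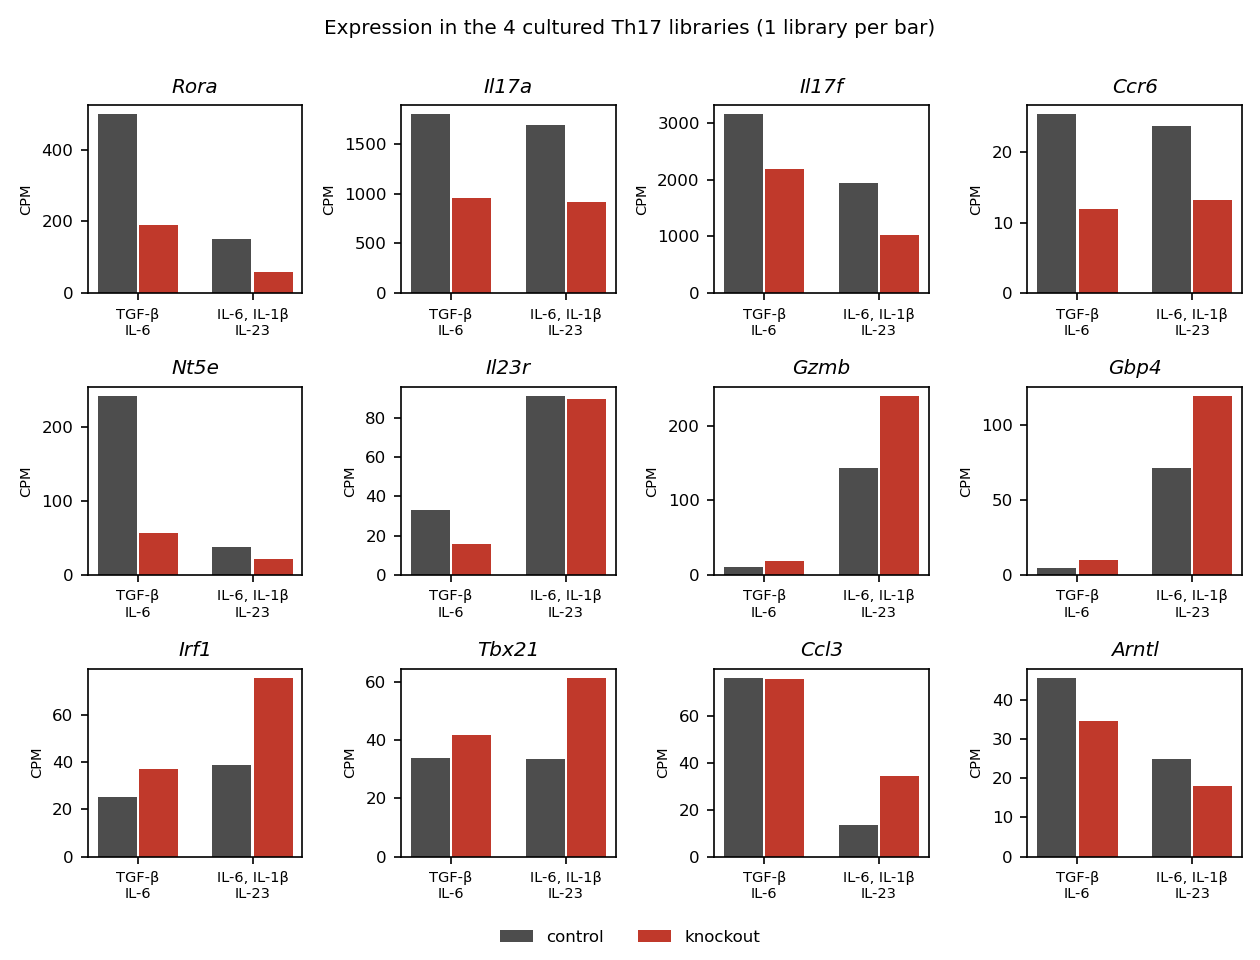
Level in CPM (vertical axis, from 0, with its own scale for each gene) of 12 genes in the 4 cultured libraries, in pairs of control (grey) and knockout (red) bars for each cytokine mix. Each bar is 1 library and has no error bar. Rora, Il17a, Il17f, Ccr6, Nt5e and Arntl are lower in the knockout of both mixes, and Gzmb, Gbp4, Irf1 and Tbx21 higher, while Il23r differs in the first mix and Ccl3 in the second.

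Gzmb (chr14:56258838-56262260) encodes granzyme B, a protease of killer cells that Th17 cells made with IL-23 also express. It had 10.8 CPM in the control and 19.0 CPM in the knockout in the first mix, and 143 and 240.0 CPM in the other mix. The knockout was 1.76-fold higher (1.45 to 2.13) in the first mix and 1.68-fold higher (1.59 to 1.77) in the second, although the control levels of the mixes differed far more than that. The fitted log2 fold change was 0.77 ± 0.08, with an adjusted p of 0.031 in edgeR's quasi-likelihood test.

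Other granule and chemokine genes were also mostly higher. Of 16 tested members of that list, 8 reached an unadjusted p under 0.05 higher in the knockout and 1, Ccl20, lower, where 1.87% of all tested genes were higher at that p and 1.8% lower. The list's median log2 fold change was 0.43, against 0.00 over all tested genes. In both mixes 11 members were higher and 2 lower, where 23.2% of all tested genes were higher in both and 23.7% lower. Gzmb alone passed the adjusted threshold. Ccl20 and Gzmb also stand in the Th17 lists.

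Nkg7, a membrane protein of cytotoxic granules, had 4.37 and 9.59 CPM in control and knockout in the first mix and 16.7 and 26.1 CPM in the second, with an adjusted p of 0.38. Xcl1, a chemokine that attracts dendritic cells, had 3.35 and 11.0 CPM with TGF-β and IL-6, or 3.29-fold (2.41 to 4.56), and at most 5 counts per library in the other mix. Its adjusted p was 0.29. Prf1, the pore-forming perforin, stayed low, with at most 9.11 CPM in any library.

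Gm33707 (chr3:60769887-60770455) is a processed pseudogene, a copy of a spliced transcript. It had 5 and 35 counts in control and knockout in the first mix and 11 and 119 counts in the second. The fitted log2 fold change was 3.21 ± 0.33, with an adjusted p of 0.031 in edgeR's test. Reads of such a copy can also fit its parent gene, so the value is uncertain. In colon cells its log2 fold change was 4.41 ± 0.70. It was near the floor there, with 0 and 0.16 CPM in the controls and 2.17 and 1.77 CPM in the knockouts.

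Interferon response genes leaned upward. Of 33 tested, 12 reached an unadjusted p under 0.05, all higher in the knockout, against 1.87% of all tested genes. None passed the adjusted threshold, and the median log2 fold change was 0.27. The median ratio was 0.05 with TGF-β and IL-6 and 0.30 in the other mix. In both mixes 15 members were higher and 0 lower, against 23.2% and 23.7% of all tested genes. The 12 included Irf1, a transcription factor of the interferon-γ signal, and Gbp2, Gbp3, Gbp4, Gbp5, Gbp7, Igtp, Irgm1 and Iigp1, GTPases that attack vacuoles of microbes inside cells. Ifi44 was also 1 of the 12, with 0 counts in both libraries of the first mix and 35 and 78 counts in control and knockout in the second. Isg15, Ifit1, Ifit2 and Rsad2, antiviral members of the list, did not reach that p. Whether the list divides by kind of interferon gene was not tested.

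Irf1 (chr11:53770014-53778374) had 24.995 and 37.1 CPM in control and knockout in the first mix and 38.8 and 75.6 CPM in the second. It was 1.48-fold (1.30 to 1.69) and 1.95-fold (1.76 to 2.16) higher, and its fitted log2 fold change of 0.78 ± 0.11 had an adjusted p of 0.12. Gbp4 (chr5:105115767-105139586) had 4.87 and 9.91 CPM in the first mix and 71.5 and 119.6 CPM in the second, with a log2 fold change of 0.81 ± 0.10 and an adjusted p of 0.086. DESeq2 called both, with adjusted p of 0.026 for Irf1 and 0.0056 for Gbp4. Over all alternatives adjusted p ran from 0.0050 to 1.0 for Irf1 and from 0.0054 to 1.0 for Gbp4. Gbp4 shares most of its length with Gbp9 on the same strand, so their reads may have been divided in ways that the counts do not show. Gbp9 had 19.5 and 34.5 CPM in the second mix.

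Igtp had 29.5 and 35.4 CPM in the first mix and 64.7 and 104 CPM in the second, with the larger step in the second mix. Iigp1 was near the floor, with 12 and 32 counts in the first mix and 31 and 78 in the second. Ifng, the gene of interferon-γ itself, was nearly silent, with 3 and 17 counts and 2 and 9 counts, and was left out of the culture test by the filter on low counts.

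**Figure D2:**
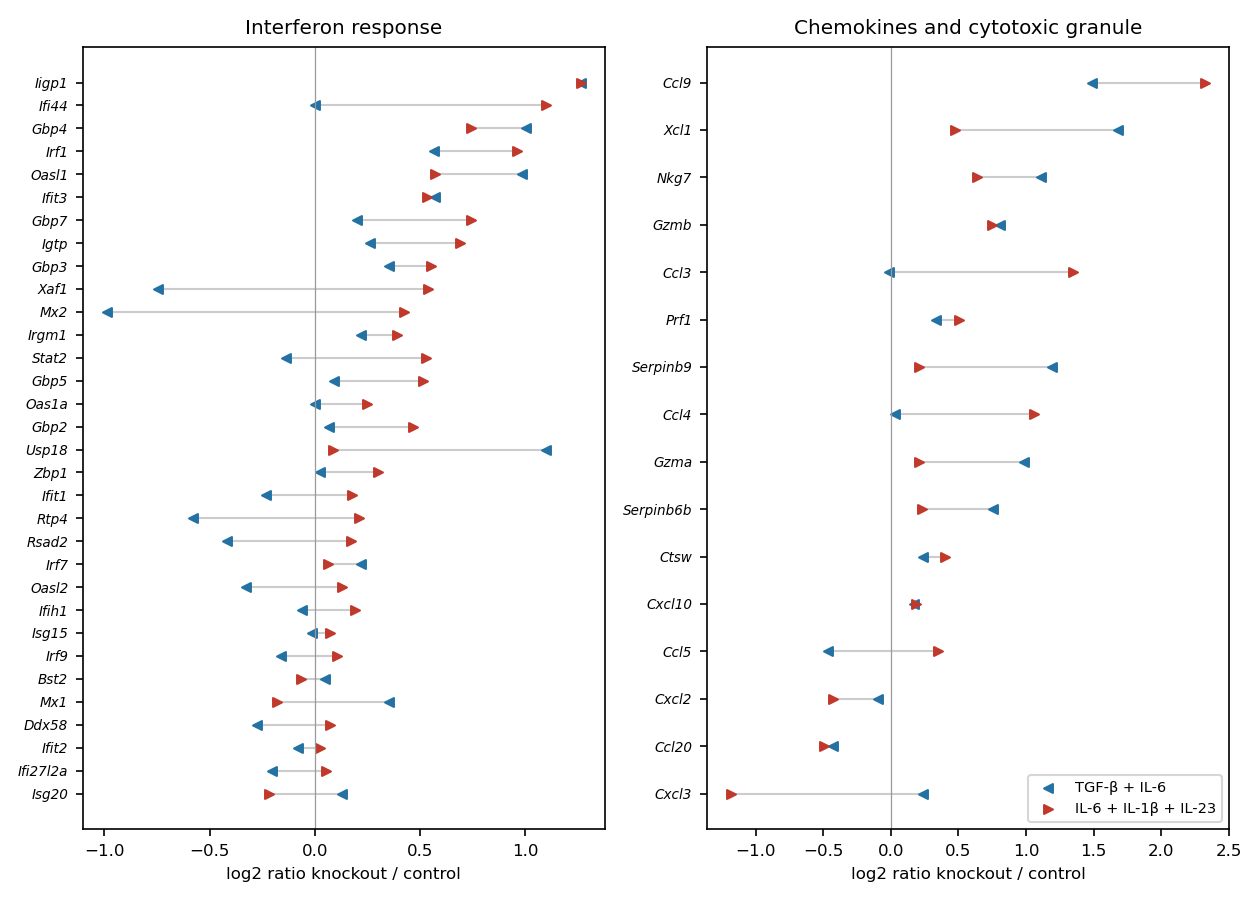
Log2 ratio of knockout to control (horizontal axis) for 32 members of the interferon response list (left) and 16 of the chemokine and cytotoxic granule list (right), ordered by the fitted change, with 1 triangle per cytokine mix and a line joining them. Each triangle is 1 library against 1, and members with few counts, such as Ifi44 with 0 counts in the first mix, are included. Both triangles lie right of 0 for 14 of the 32 members drawn on the left and 11 of 16 on the right.

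Genes of the other helper T cell fates were mixed. Of all tested genes, 1.87% were higher at an unadjusted p under 0.05 and 1.8% lower. Of 12 tested Th1 genes, 3 reached an unadjusted p under 0.05, all higher, Tbx21 and Il12rb2 among them. Tbx21, which encodes the Th1 master factor T-bet, had 33.9 and 41.7 CPM in control and knockout in the first mix and 33.5 and 61.3 CPM in the second. The controls of both mixes were alike, and the knockout of the second mix stood highest. Its adjusted p was 0.57. Il12rb2, the IL-12 receptor chain, was 1.25-fold and 1.35-fold higher.

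Of 10 tested Th2 genes, 1 reached an unadjusted p under 0.05 higher (Il10) and 3 lower (Il13, Ccr4 and Maf). For this list and those that follow here, the shares over all tested genes were 1.87% higher and 1.8% lower. Il13 had 10.1 CPM in the control and 5.01 CPM in the knockout of the second mix, and at most 14 counts per library in the first. Il10, an anti-inflammatory cytokine, had 5.13 and 6.39 CPM, then 4.02 and 6.12 CPM. Il4 was low in each library, at most 2.60 CPM. Of 13 tested genes of regulatory T cells, 2 reached that threshold, 1 higher and 1 (Nt5e) lower, and Foxp3, their master factor, had 4.49 and 5.83 CPM in the first mix and at most 19 counts in the second. The pathogenic Th17 list, 18 tested, was split, with 5 higher (Gzmb, Tbx21, Ccl4, Lgals3 and Lag3) and 3 lower (Csf2, Il22 and Il1r1), and its median was 0.01. Il2 and Tnf were close to their controls, with fitted log2 fold changes of 0.15 ± 0.08 and -0.00 ± 0.08.

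Nt5e (chr9:88327197-88372092) encodes CD73, a surface enzyme that makes adenosine. It had 241 CPM in the control and 55.9 CPM in the knockout in the first mix, and 38.1 and 21.5 CPM in the other mix. The knockout held 23.2% (21.5% to 24.9%) and 56.4% (49.1% to 64.6%) of the control, a larger step than that of Rora in the first mix and a smaller one in the second. The fitted log2 fold change was -1.60 ± 0.24, with an adjusted p of 0.17 in edgeR's test. Other settings ranged widely, from 0.0050 in the fit of all 8 libraries to 1.0 in DESeq2.

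Of 19 tested ROR and clock genes, 3 reached an unadjusted p under 0.05, against 3.68% of all tested genes. The 3 were Rora itself and Arntl, which were lower, and Per2, which was higher. The place of Rora, the deleted gene, was fixed by the design. Arntl had 45.7 and 34.7 CPM in control and knockout in the first mix and 24.8 and 18.03 CPM in the second, or 75.9% (67.8% to 84.9%) and 72.7% (62.0% to 85.1%) of the control. Its adjusted p was 0.56. Per2, a repressor of the clock, had 12.8 and 17.99 CPM, then 6.98 and 7.88 CPM. Cry1, another repressor, had log2 ratios of 0.06 and -0.09, and Nr1d1 and Nr1d2, the REV-ERB receptors that compete with ROR proteins for the same sites, had unadjusted p of 0.23 and 0.52. The list's median was 0.07.

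Medians of growth and metabolism lists lay near 0. Of all tested genes 3.68% reached an unadjusted p under 0.05, and the counts of these lists were near or under that share. Among 28 tested components and activators of mTORC1, the nutrient-sensing kinase complex, 1 reached an unadjusted p under 0.05 (Rhebl1, higher), the median was -0.00, and Mtor had 73.8 and 77.8 CPM, then 43.6 and 46.7 CPM. None of its 23 tested inhibitors did. Glycolysis had 1 of 23, Aldoc, which had 38.8 and 21.8 CPM in control and knockout in the first mix and 141 and 135 CPM in the second. Cholesterol synthesis had 1 of 23, Nsdhl, lower. None of 41 respiratory chain genes and none of 25 proliferation genes reached it, and 1 of 44 ribosomal protein genes did, Rpl24, which had at most 50 counts per library. Medians of these lists ran from -0.06 to 0.02. By direction some leaned lower in small steps. In both mixes 11 glycolysis genes were lower and 1 higher, as were 10 and 1 of cholesterol synthesis and 13 and 1 ribosomal protein genes. Proliferation genes had 6 lower and 10 higher. Of all tested genes 23.7% were lower in both mixes and 23.2% higher.

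**Figure D3:**
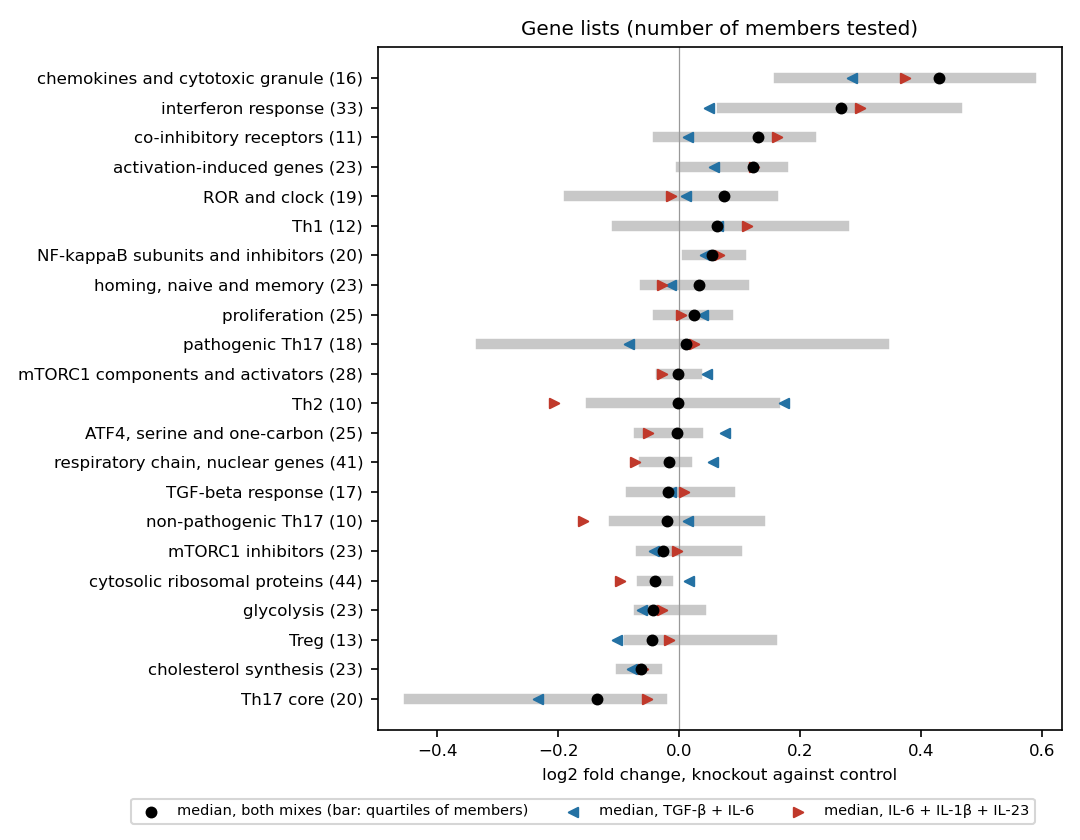
Median log2 fold change of knockout against control (horizontal axis) for 22 gene lists, with the number of tested members in brackets. Black dots are the fit over both mixes, grey bars the quartiles over members (not an error of the median), and triangles the median ratio in each mix, 1 library against 1. Chemokines and cytotoxic granule (0.43) and the interferon response (0.27) lie farthest right and the Th17 core (-0.14) farthest left.

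Within each mix, the knockout library was set against its control, with no p-value. A gene was counted at a 2-fold or larger ratio where either library had 5 CPM or more, with 2 counts added to steady the ratio. With TGF-β and IL-6, 23 of 9589 genes passed, or 0.24%, with 9 higher (0.0939%) and 14 lower (0.146%). In the other mix 29 of 10003 passed, or 0.29%, with 20 higher (0.2%) and 9 lower (0.09%). Among genes counted in both mixes, Rora was the only one past 2-fold in both in the same direction, and none was past it in opposite directions. Genes that missed 5 CPM in both libraries of a mix, such as Gm33707 and Iigp1 in the first, could not count in both. Across the 13983 tested genes, the ratios of the mixes had a Pearson correlation of 0.02 and a Spearman correlation of -0.03. Across the 6112 genes with 20 CPM or more in all 4 libraries, these were -0.03 and -0.15. Both are descriptions across genes that share their libraries.

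With TGF-β and IL-6, 8 of the 23 genes were under 1.2-fold in the other mix while counted at 5 CPM or more there. Slc15a2 (chr16:36750177-36784962), a peptide transporter, had 0 counts in the control and 145 in the knockout, which is at least 47.9-fold higher against a floor of 3 counts. In the other mix it had 196 and 200 counts, so the control of the first mix was the low library. Il23r (chr6:67422932-67491855), the receptor for IL-23, had 33.1 CPM in the control and 15.6 CPM in the knockout, or 47.2% (40.4% to 55.0%), and 91.1 and 89.4 CPM in the mix that contains IL-23, or 98.2% (91.0% to 106%). The knockout was low in the mix without IL-23. With 1 library each, that difference between mixes was not tested.

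Of the rest of the 8, Cdk5rap1, Srp54c and Serpinb9 were higher and Maged1, Smpdl3a and the long noncoding RNA Gm26809 lower. Serpinb9, an inhibitor of granzyme B, had 2.72 and 6.39 CPM in the first mix and 26.2 and 30.3 CPM in the second. Srp54c had 239 and 537 counts and its near copy Srp54b 204 and 8 counts in the same libraries, so reads may have been shared between them and both values are uncertain. A further 7 of the 23, Xcl1 and Mns1 among them, were under 5 CPM in both libraries of the other mix, where their ratio was not read. The other 7, which included Nt5e, Ccr6, Gbp4, Nkg7 and Hmgn3, were between 1.2-fold and 2-fold in the second mix, and 6 of them went the same way there.

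In the second mix, 7 of the 29 genes were under 1.2-fold in the first mix. Ccl3 and Ccl4, neighbouring genes for chemokines that attract macrophages and T cells, stood out. Ccl3 had 13.4 CPM in the control and 34.4 CPM in the knockout, or 2.56-fold (2.17 to 3.02), against 76.1 and 75.5 CPM in the first mix. Ccl4 had 30.3 and 63.4 CPM, or 2.09-fold (1.87 to 2.34), against 302 and 308 CPM in the first mix. Both were thus less abundant in the mix where the genotypes differed. Tns4 and Lncpint were also higher, with at most 8.34 CPM in any library, and Pcbp3 and Rpl29 lower. Rpl29 is a ribosomal protein gene with many processed copies, and Gm8210, the last of the 7, is such a pseudogene, so that both are uncertain.

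Among the other 22 genes of that mix were Enc1, Alpk2 and Ldlrad4, and several pseudogenes. Alpk2, a kinase, had 112 and 45.2 CPM in the second mix and 86.4 and 69.8 CPM in the first. Enc1, an actin-binding protein, had 34.8 and 77.3 CPM in the second and 37.7 and 47.3 CPM in the first. Both went the same way in the first mix, by less.

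**Figure D4:**
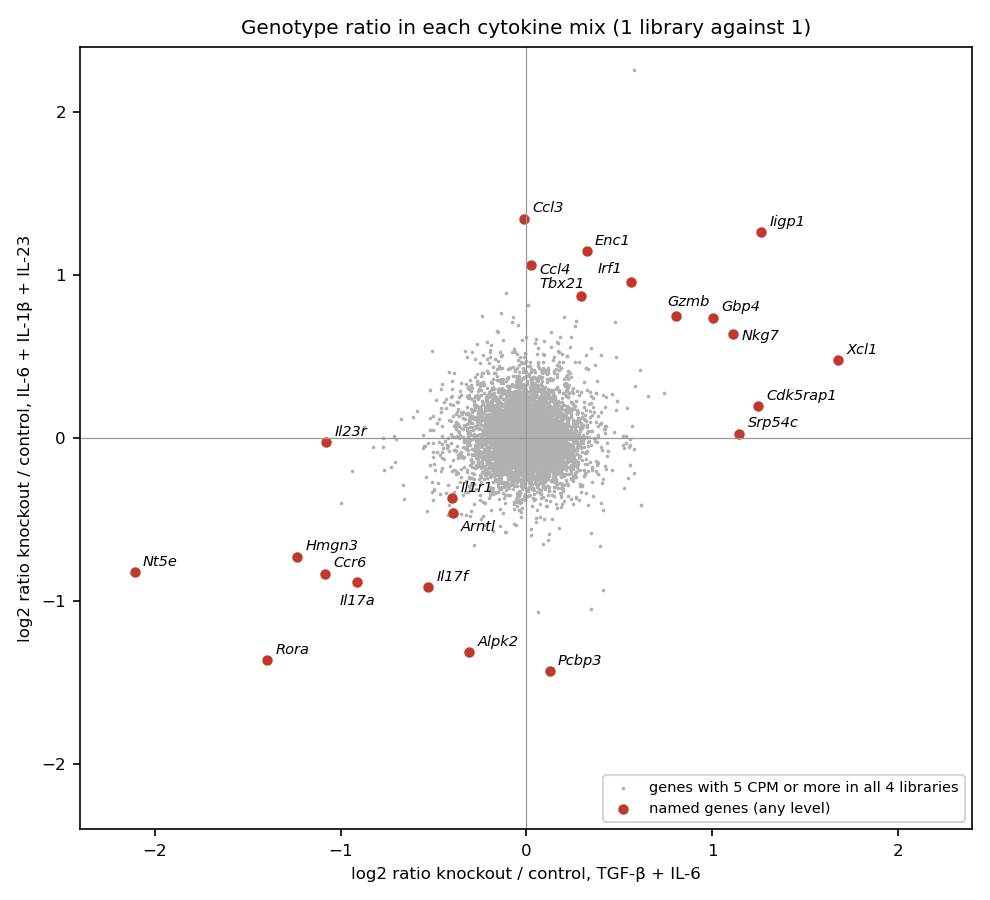
Log2 ratio of knockout to control with TGF-β and IL-6 (horizontal axis) against that in the mix of IL-6, IL-1β and IL-23 (vertical axis), 1 library against 1 on each axis. Grey points are the 8949 genes with 5 CPM or more in each of the 4 libraries and red points named genes of any level. Rora, Il17a, Ccr6 and Nt5e lie far into the lower left, Gzmb and Gbp4 into the upper right, Il23r on the horizontal axis line and Ccl3 on the vertical one.

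The genotype effect in culture was compared with that in colon cells by the interaction term of a fit of all 8 libraries. It differed for 2468 of 15911 genes, or 15.5%, and in colon cells alone 5180 of 13064 genes, or 39.7%, passed the threshold. Scaled by library totals the median difference over all genes moved from -0.01 to -0.21, so differences of that size are not read. The colon libraries have their own annotation table and are cells of another tissue after 6 weeks in a host, so the comparison is between those settings as wholes.

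Il17a, Il17f and Ccr6 were lower in the knockout in both settings, by less in culture. In colon cells Il17a had 2208 and 2472 CPM in the controls and 622 and 671 CPM in the knockouts, a log2 fold change of -1.84 ± 0.09 against -0.90 in culture, and the difference was 0.96 ± 0.11 (adjusted p 3.2e-04, edgeR's quasi-likelihood test, as for the others here). Il17f differed by 1.27 ± 0.13 (adjusted p 1.7e-04) and Ccr6 by 0.93 ± 0.19 (adjusted p 0.0070). Rora ran the other way, with -0.94 in colon cells and -1.38 in culture, a difference of -0.43 ± 0.13 (adjusted p 0.035). Without the first colon control the adjusted p for Rora was 0.13, without the second colon knockout 0.14, and with no filter on low counts 0.17. Arntl, with -1.34 in colon cells and -0.43 in culture, differed by 0.93 ± 0.13 (adjusted p 7.0e-04). For Il23r and Il1r1 the differences were 0.15 ± 0.31 and 0.02 ± 0.11, and adjusted p was 0.81 and 0.97.

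For a second set of genes the estimates had opposite signs in the 2 settings. None of them passed the adjusted threshold in edgeR's culture test, where the smallest adjusted p was 0.17 (Nt5e). The interaction tests whether the effects differ and not whether their signs are opposite, so the direction in culture is a description. Nkg7, Plac8 and Tbx21 had higher levels in the cultured knockout and lower levels in the colon knockout, with differences of 1.39 ± 0.16, 1.02 ± 0.13 and 0.94 ± 0.15 and adjusted p of 2.4e-04, 4.6e-04 and 0.0016. Il10 behaved likewise, at 1.45 ± 0.19 (adjusted p 4.4e-04). Ccl3 and Ccl4, which were higher in the cultured knockout of the second mix, had colon log2 fold changes of -1.002 ± 0.11 and -1.13 ± 0.08. Nt5e was the reverse, with 114 and 111 CPM in the colon controls and 240.2 and 250.2 CPM in the knockouts, a difference of -2.70 ± 0.26 (adjusted p 9.5e-05). Il13 also went the opposite way and differed by -3.004 ± 0.20 (adjusted p 3.8e-06), with 831 and 931 CPM in the colon controls and 3599 and 3495 CPM in the knockouts.

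Gzmb, Irf1 and Gbp4 were higher in the knockout in both settings. Irf1 differed by 0.20 ± 0.13 and Gbp4 by -0.34 ± 0.14, with adjusted p of 0.35 and 0.11. Gzmb differed by 0.39 ± 0.11 (adjusted p 0.031), and by 0.20 with an adjusted p of 0.25 when scaled by library totals. With no filter on low counts its adjusted p was 0.081.

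**Figure D5:**
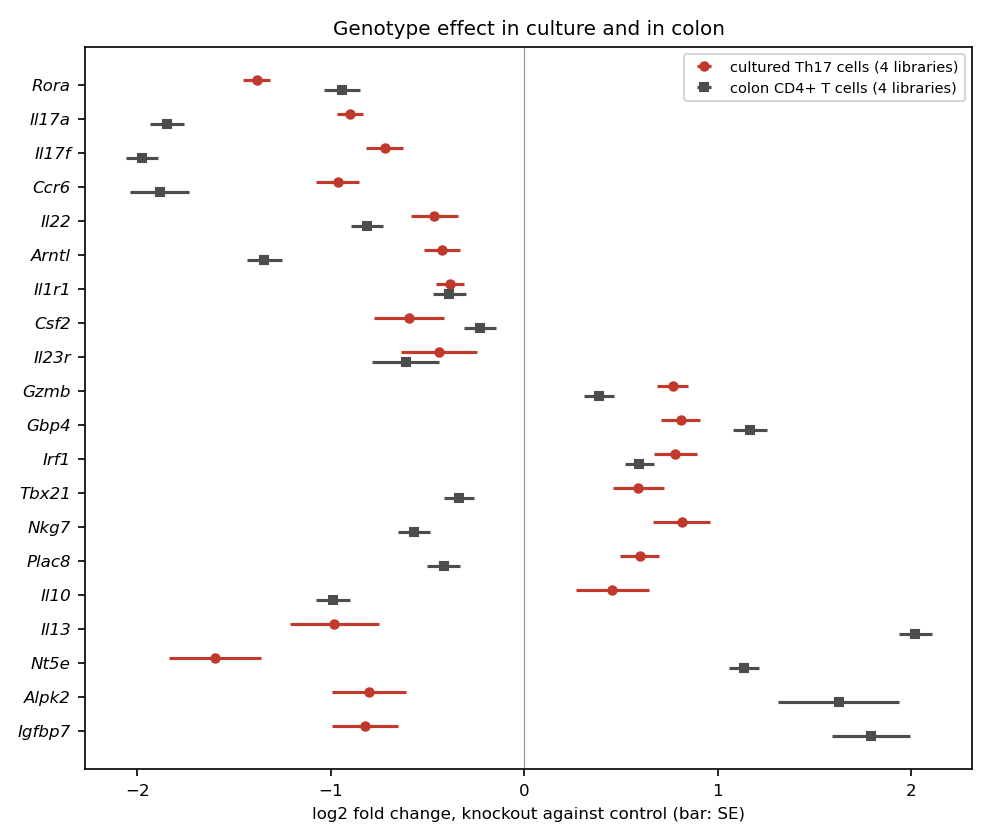
Log2 fold change of knockout against control (horizontal axis, bars show SE) for 20 genes in cultured Th17 cells (red circles, fit over 4 libraries with the mix as a block) and in colon CD4+ T cells (grey squares, 2 libraries per genotype). Both points lie left of 0 for the Th17 genes at the top and right of 0 for Gzmb, Gbp4 and Irf1, and they lie on opposite sides for Tbx21, Nkg7, Plac8, Il10, Il13, Nt5e, Alpk2 and Igfbp7.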

How the data were processed

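RNA from 8 libraries was sequenced, and the 4 of cultured Th17 cells are the subject here. The submitters' processing notes list build mm10 and the tools featureCounts, Bowtie2, Trim Galore, DESeq2 and edgeR, but neither versions nor what each tool did. No source used here gives the strand setting. The deposited values are raw read counts per gene, as the file headers and whole numbers show. The culture tables held 55341 symbols, of which 55315 occur in GENCODE M21, which supplied identifiers and coordinates. A further 26 symbols had become dates, held 0.23% to 0.27% of counts and were not named.

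Counts were fitted in R 4.3.3 with edgeR 4.0.16 (filterByExpr, TMM scaling, quasi-likelihood F-test, cytokine mix and genotype as terms, Benjamini-Hochberg adjustment over all 13983 tested genes, threshold 0.05). CPM are TMM-scaled. Within a mix, ratios used 2 added counts and no test, and intervals are exact binomial at 95%. The interaction fit joined 54185 genes of all 8 libraries and has 3 residual degrees of freedom. DESeq2 1.42.0, other scalings, filters, floors and added counts were alternatives. Only edgeR's culture fit was tested on simulated data, with changes placed in well-counted genes. The interaction fit, the colon fit and DESeq2 were not. Promoters and their coordinates come from RefSeq (GRCm38.p6). Some of the genes that the rule names are not reported here.

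Genes named are Rora, a fixed set of cytokine and lineage genes, each gene that passed, the 10 per direction with the smallest p among genes with an established symbol, 5 CPM or more in both libraries of the higher genotype, the same sign in both mixes and 1.5-fold or more, the 6 largest per direction of each ratio class, and up to 4 members of each list with the smallest p. Further genes were named after their values were seen, as members of a list or examples of a class. The members, lists and rules were chosen with earlier results of these data known, and no list count is independent support.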

Additional observations from a re-analysis of the deposited data

Results flagged for a closer look

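For 16 of the genes named in the culture comparison, the effect of genotype differed between cultured and colon cells by the interaction test of edgeR, with an adjusted p under 0.05. The 16 are not all of the named genes that passed, since Il13, Arntl, Xcl1 and Mns1, for example, did too. Over all genes tested for the interaction 15.5% passed. The 16 were picked because they passed, so their number is not a share of the named genes to set beside that. The other fits below can only keep or lose them. Values for the 16 are log2 fold changes in culture minus those in colon cells. They were positive for Ifng (2.71), Il10 (1.45), Nkg7 (1.39), Il17f (1.27), Plac8 (1.02), Il17a (0.96), Tbx21 (0.94), Ccr6 (0.93), Tnf (0.49) and Gzmb (0.39). They were negative for Hmgn3 (-3.96), Nt5e (-2.70), Igfbp7 (-2.60), Alpk2 (-2.42), Ston2 (-1.75) and Rora (-0.43).

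Several of these rest on few counts in 1 setting. Ifng had 2 to 17 counts per cultured library and 1105 to 1537 CPM in colon cells. Hmgn3, a chromatin protein, had at most 1.63 CPM in any colon library, and without the second colon knockout its difference was -2.92 with an adjusted p of 0.056. Igfbp7, a secreted protein that binds growth factors, had 8.99 and 5.52 CPM in control and knockout in the first mix and 8.49 and 4.36 CPM in the second, against 2.69 to 3.89 CPM in colon controls and 10.9 to 11.9 CPM in colon knockouts. Ston2, an endocytosis adaptor, had 11.3 and 5.58 CPM in the first mix and 25.3 and 19.1 CPM in the second.

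Of the 16 differences, 14 passed with library totals in place of TMM, where Gzmb (0.20) and Tnf (0.29) did not. With no filter on low counts 12 passed, and Alpk2, Rora, Gzmb and Tnf did not, with adjusted p of 0.11, 0.17, 0.081 and 0.059. Without a colon library 13 to 16 passed. Gzmb missed the threshold in 3 of those fits, with 0.37 and an adjusted p of 0.080 without the first colon control, 0.41 and 0.053 without the second, and 0.37 and 0.090 without the second colon knockout. Rora missed it without the first colon control (-0.32) and without the second colon knockout (-0.35).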

How the results depend on the processing

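The culture test called 4 genes. DESeq2 called 7 (also Il17f, Gbp4 and Irf1), library totals 10, DESeq2's size factors in edgeR 10, the fit of all 8 libraries 16 and the older quasi-likelihood method of edgeR 4. Each of these held the 4. In edgeR, 0 genes passed with no filter on low counts (442 at an unadjusted p under 0.05) and 0 without a term for the mix (4 unadjusted). None of the 4 reversed its direction in these fits. Leaving out a culture library leaves no residual degree of freedom, so the ratio in the other mix stands in for it. With a floor of 1 CPM in place of 5, 158 genes passed 2-fold in the first mix, 184 in the second and 5 in both, and 48 and 43 were 2-fold in the first or second mix alone. With 20 CPM the counts were 5 and 10, and 1 and 3 in a single mix. Other added counts and library totals moved none of these counts by over 1.5 times. The interaction called 2468 genes (1393 higher and 1075 lower in culture), 544 and 2190 with library totals, 848 with no filter, and 1369 to 2127 without 1 colon library, lowest without the second knockout. The colon replicate numbers are shared labels, and nothing says that they mark a pair. With a replicate block the interaction called 3039 genes, and same-numbered colon libraries deviated together across 8792 genes with a correlation of 0.29. Precision in culture is limited by 1 library per group.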

Other observations

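Some gene groups not described above leaned 1 way in culture. Among 23 tested activation-induced genes, 2 reached an unadjusted p under 0.05, both higher in the knockout, against 1.87% of all tested genes, and the median log2 fold change was 0.12. In both mixes 11 of them were higher and 3 lower. Egr3, an early factor of T cell receptor signals, had 158 and 178 CPM in control and knockout in the first mix and 49.6 and 72.0 CPM in the second. Among 20 subunits and inhibitors of NF-κB, 2 reached it, both higher, 9 were higher in both mixes and 0 lower in both, where 23.2% of all tested genes were higher in both and 23.7% lower, and the median was 0.05. Among 11 tested co-inhibitory receptors, Lag3 and Cd160 were higher and Nt5e lower at that threshold. Of all tested genes 1.87% were higher at it and 1.8% lower. Lag3 had 161 and 188 CPM in the first mix and 65.8 and 93.4 CPM in the second. Slc1a4, a transporter of serine and alanine, was 1.29-fold and 1.37-fold higher, while the median of its list of ATF4 and one-carbon genes was -0.00.

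A position was looked at after the values were seen. Besides Rora, 13 genes were lower by 2-fold or more with TGF-β and IL-6, and 3 of them (Mns1, Hmgn3 and Nt5e) lay within 20 megabases after the start of Rora on chromosome 9. Rora aside, that stretch holds 60 of the 9588 genes counted, or 0.626%. The stretch lies on 1 side of the start of Rora and was looked at with these genes known, so that share is a description and no test. In the second mix 0 genes there other than Rora passed 2-fold in either direction. Mns1 was under 5 CPM in both libraries of that mix and could not count. All 3 genes were lower in the knockout of that mix too, at 54.7% (Mns1), 60.1% (Hmgn3) and 56.4% (Nt5e) of the control. Mns1, a protein of sperm flagella, had 105 and 42 counts in control and knockout in the first mix and 56 and 31 in the second. Hmgn3 had 96 and 40 counts, then 291 and 177. In colon cells Mns1 and Nt5e were higher in the knockout, with log2 fold changes of 1.26 ± 0.22 and 1.13 ± 0.08. What these genes share besides position was not tested.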
